A study of Mus musculus with 7 samples.

Results

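RNA of splenic natural killer (NK) cells was read for the 9 genes of the TGF-β receptor and SMAD pathway (Tgfbr1, Tgfbr2, Tgfbr3, Smad2, Smad3, Smad4, Smad7, Ski and Skil), out of 53379 genes in the deposited count table. The genes were chosen by symbol. All 9 had 1 row each in the table, and all 9 passed the low-count filter that left 12161 genes for testing. The cells were sorted straight from spleens of C57BL/6 mice as viable CD45+ CD3- NK1.1+ NKp46+ CD49b+ cells. There were 4 Hhex KO libraries, from cells deficient in the homeobox transcription factor gene Hhex, and 3 Cre control libraries, called knockouts and controls from here on. The labels used here name neither the Cre driver nor the Hhex allele, nor the mice's age or sex, and they name no agent given to mice or cells. The design text speaks of biological replicates but does not tell whether a library stands for 1 mouse or a pool.

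TGF-β is a secreted cytokine that restrains NK cells: it lowers cytotoxicity and interferon-γ production and favours features of type 1 innate lymphoid cells (ILC1). The ligand binds TGFBR2, a receptor kinase that then activates TGFBR1, and TGFBR3 (betaglycan) presents ligand to this pair. Activated TGFBR1 phosphorylates SMAD2 and SMAD3, which join SMAD4 and enter the nucleus to regulate target genes. SMAD7 blocks the receptors and is itself a target of the pathway, and the corepressors SKI and SNON (encoded by Skil) hold SMAD complexes inactive until signalling removes them. In bulk RNA, fewer cells that express a gene and less RNA of that gene per cell cannot be told apart.

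Total counts ranged from 10589915 (Hhex KO replicate 4) to 18456404 (Cre control replicate 3). Levels are given as CPM, the count scaled to a common library size after TMM correction. The check of the labels held in direction: Hhex fell from 93.5 to 96.1 CPM in the controls to 54.2 to 64.8 CPM in the knockouts (log2 fold change -0.70 ± 0.10, SE; edgeR adjusted p = 0.00768). Summed NK cell markers (8 genes, among them Ncr1, Eomes and Gzma) stood at 13358 to 17675 CPM in the controls, against 10494 to 13898 CPM in the knockouts. The sums overlapped, and 0 of the 8 genes were called, with log2 fold changes from -0.45 (Prf1) to 0.05 (Tbx21). Gzma, the most abundant, averaged 8063 CPM in the controls and 6334 CPM in the knockouts. Eomes and Itga2 had log2 fold changes of -0.006 and -0.003. Of the other cells a sort can hold, 7 T cell markers summed to 41.1 to 69.9 CPM in the controls, against 62.7 to 125.9 CPM in the knockouts. Cd4 and Cd8a were at 2.91 CPM or less in every library. Cd3d was at 16.5 to 30.3 CPM in the controls, against 30.6 to 57.2 CPM in the knockouts, without overlap (edgeR adjusted p = 0.0890). The 4 tested T cell markers had log2 fold changes of 0.72 to 1.04, and 0 were called. All 4 had an unadjusted edgeR p under 0.05, as did 18.5% of all genes. The 5 B cell markers summed to 2.54 to 5.10 CPM in the controls, against 4.69 to 40.7 CPM in the knockouts, with Hhex KO replicate 1 the highest. Among them Cd79b, a B cell receptor subunit gene, was the only marker of another cell type to be called: it rose from 2.02 to 2.77 CPM in the controls to 4.61 to 14.5 CPM in the knockouts (log2 fold change 1.90, adjusted p = 0.0292). The part of T cells or B cells in the results was not tested. Summed levels of myeloid markers reached 528.9 CPM in Hhex KO replicate 2, and those of red cell markers 46.9 CPM there. Of 6 stromal and endothelial markers, Pecam1 was at 101.3 to 167.9 CPM (not called) and the other 5 were each below 1 CPM in every library, with Col3a1 at 0. The libraries also differed in nuclear-retained RNA (Malat1, Neat1, Kcnq1ot1 and Meg3, with Meg3 at 0): the sum was 1130 and 1058 CPM in Hhex KO replicates 1 and 4 and 804.5 CPM in Cre control replicate 1, against 202 and 179 CPM in Hhex KO replicates 2 and 3. Cre control replicates 2 and 3 were at 315 and 500.2 CPM. Hhex KO replicate 4 carries sample number 95 in its label and the others 20 to 28; no label says whether it was handled apart.

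None of the 9 genes passed the test between Hhex KO and Cre control: 0 rose and 0 fell. In edgeR's quasi-likelihood test 2.68% of all tested genes rose and 1.87% fell at an adjusted p below 0.05, and 4.56% did either, so 0 calls among 9 genes is close to that background. With DESeq2 the count was also 0, beside 5.14% of all genes higher and 3.86% lower. In edgeR 1 of the 9 genes, Smad7, was at an unadjusted p under 0.05, as were 18.5% of all genes. With sample quality weights in limma-voom, Smad7 alone was past 0.05 (adjusted p) and lower. That setting called 10.9% of all genes lower and 12.6% higher. The log2 fold changes (Hhex KO over Cre control) ran from -0.42 for Smad7 to 0.18 for Tgfbr1, with a median of -0.20 and 8 of 9 below 0. Over all tested genes the median was 0.02, and 47.3% were below 0. The unadjusted 95% intervals of the 9 folds together ran from 0.560 to 1.40, so that a doubling or a loss of any of these transcripts lay outside them.

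**Figure D1:**
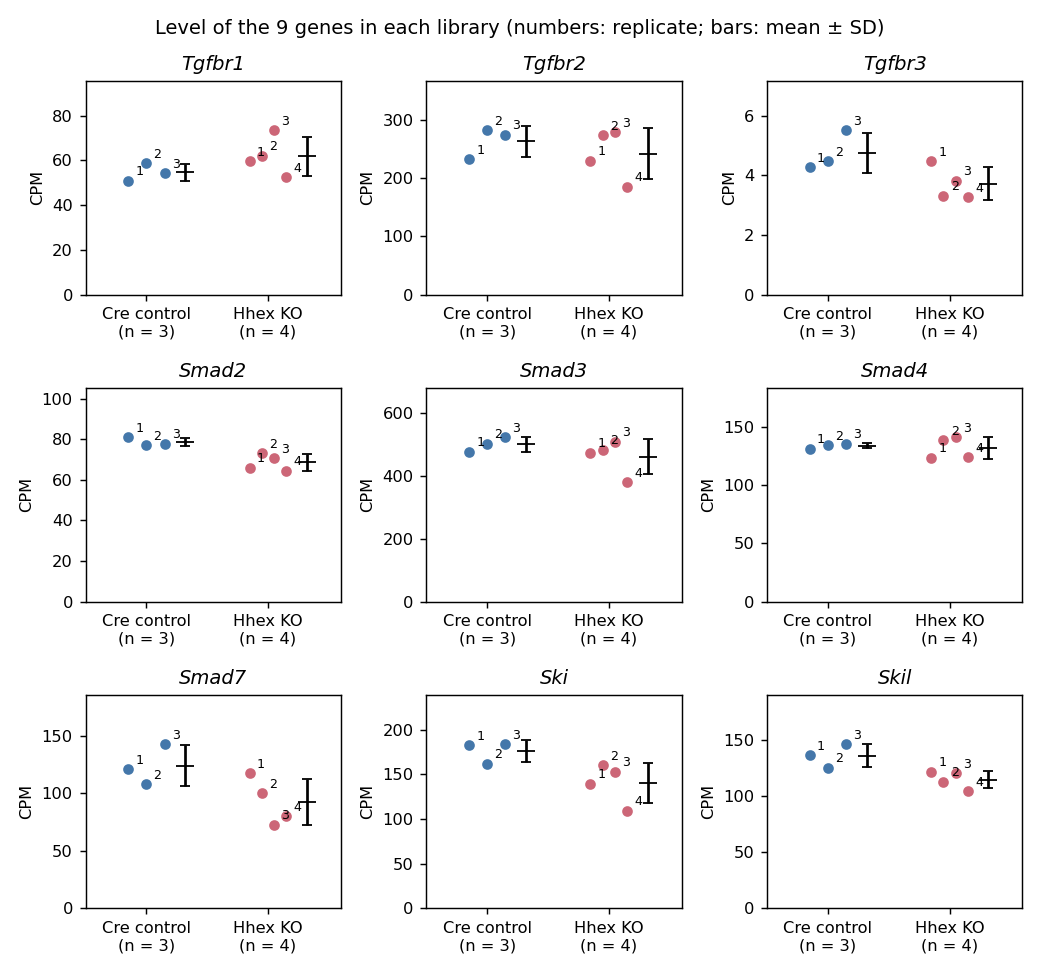
Level of each gene in CPM (vertical axes, each from 0) by group, 1 point per library with its replicate number, and the mean ± SD beside each group. The Hhex KO points of Smad2, Ski and Skil all lie below the Cre control points, while the groups of the other 6 genes overlap.

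The order of the transcripts within NK cells was read from CPM per kilobase of merged exons, since levels of different genes compare only per length. Smad3 was by far the most abundant in Cre control, at 90.3 ± 4.19 CPM per kb (SD, n = 3). It lay at the 95.5th percentile of 10949 tested protein-coding genes. Smad4 (36.1), Tgfbr2 (32.2), Ski (31.7) and Smad7 (27.4 CPM per kb, Cre control means) formed the next group. The ranges of Tgfbr2, Ski and Smad7 over the 3 libraries overlapped from neighbour to neighbour, while Smad4 stood above Tgfbr2. Skil followed at 14.1, then Smad2 at 8.95 and Tgfbr1 at 8.36 CPM per kb, and those of Smad2 and Tgfbr1 overlapped. Tgfbr3 was the lowest, at 0.73 ± 0.10 CPM per kb (SD, n = 3), at percentile 12.3. In Hhex KO the order was the same except that Tgfbr1, at 9.47 CPM per kb, stood above Smad2, at 7.82 CPM per kb. The ranges of these genes over the 4 Hhex KO libraries were 8.02 to 11.2 and 7.35 to 8.34 CPM per kb, and overlapped.

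**Figure D2:**
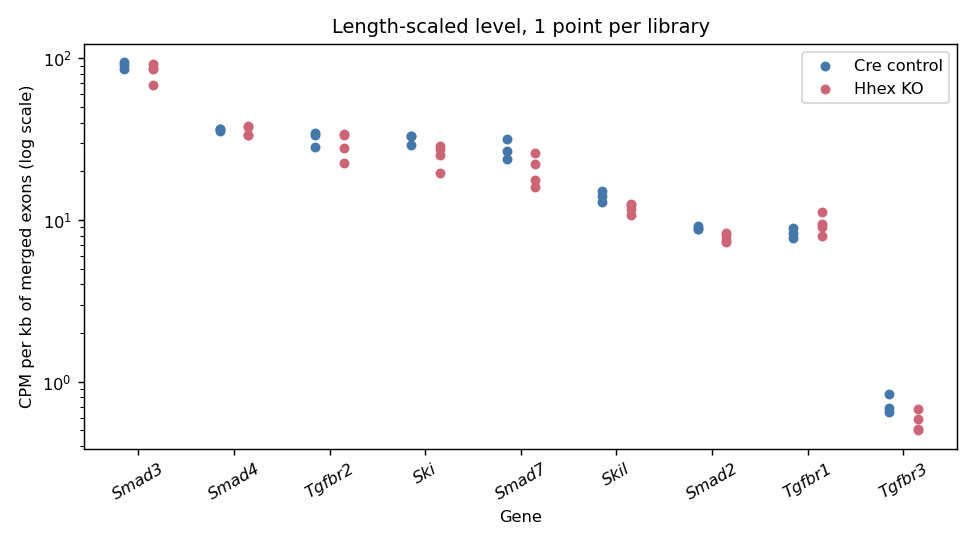
Length-scaled level of each gene (vertical axis, CPM per kb of merged exons, log scale), with genes in the order of their Cre control means and 1 point per library. Smad3 lies at 68.5 to 94.4 CPM per kb in all 7 libraries and Tgfbr3 below 1.

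Among the receptors, the type I and type II kinases were both read well and the co-receptor hardly at all. Tgfbr1 (ENSMUSG00000007613.15, chr4:47353222-47414931, plus strand, GRCm38) encodes the type I kinase that phosphorylates SMAD2 and SMAD3. It was at 50.9, 58.7 and 54.3 CPM in control replicates 1, 2 and 3, against 59.6, 62.0, 73.4 and 52.4 CPM in Hhex KO replicates 1, 2, 3 and 4. Hhex KO replicate 3 was the highest, and the groups overlapped. Hhex KO over Cre control gave a log2 fold change of 0.18 ± 0.13 (SE; edgeR adjusted p = 0.547), with a 95% interval of the fold from 0.920 to 1.40.

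Tgfbr2 (ENSMUSG00000032440.13, chr9:116084293-116175360, minus strand) encodes the type II kinase that binds the ligand. Reads came to 232.8, 282 and 274.8 CPM in the controls, against 229.8, 273.2, 278.6 and 185.4 CPM in the knockouts, in replicate order. The 2 groups covered nearly the same range apart from Hhex KO replicate 4. On the log2 scale the difference was -0.12 ± 0.16 (adjusted p = 0.785), or -0.02 without Hhex KO replicate 4.

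Tgfbr3 (ENSMUSG00000029287.14, chr5:107106570-107289629, minus strand), the co-receptor, had only 37 to 102 reads per library. These came to 4.27, 4.49 and 5.51 CPM in the controls, against 4.47, 3.32, 3.83 and 3.28 CPM in the knockouts. Hhex KO replicate 1 lay within the Cre control range and the other 3 below it. The log2 fold change of -0.35 ± 0.21 (adjusted p = 0.435) had the widest interval of the 9 genes, from -0.84 to 0.13.

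Promoter sequence was looked up in RefSeq's GRCm38.p6 windows of 250 bases before to 50 after a start site, which held 4 of the 9 genes (Tgfbr1 with 2 start sites, Tgfbr2, Ski and Smad3). The 250 bases before the start are printed for Tgfbr1 and Tgfbr2, the receptor pair that starts TGF-β signalling, and for Acvr2a, the only gene of the wider pathway lists that passed the test in edgeR (described further on). Capitals mark the SMAD box, GTCT, on either strand (AGAC as read here), the short element that SMAD3 and SMAD4 contact in DNA. The windows are chr4:47352972-47353221 (plus strand), chr9:116175364-116175613 (minus strand) and chr2:48813859-48814108 (plus strand), and no GENCODE M21 exon overlaps them.
Tgfbr1: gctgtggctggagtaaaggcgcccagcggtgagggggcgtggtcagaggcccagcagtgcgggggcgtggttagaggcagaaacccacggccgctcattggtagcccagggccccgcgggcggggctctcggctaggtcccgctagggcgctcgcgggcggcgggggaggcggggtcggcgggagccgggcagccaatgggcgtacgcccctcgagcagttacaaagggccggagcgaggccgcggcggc
Tgfbr2: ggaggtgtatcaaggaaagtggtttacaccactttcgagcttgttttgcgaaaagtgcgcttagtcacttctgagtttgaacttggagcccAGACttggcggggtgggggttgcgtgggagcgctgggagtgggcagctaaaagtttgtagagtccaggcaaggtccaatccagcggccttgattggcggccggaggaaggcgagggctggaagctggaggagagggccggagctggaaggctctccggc
Acvr2a: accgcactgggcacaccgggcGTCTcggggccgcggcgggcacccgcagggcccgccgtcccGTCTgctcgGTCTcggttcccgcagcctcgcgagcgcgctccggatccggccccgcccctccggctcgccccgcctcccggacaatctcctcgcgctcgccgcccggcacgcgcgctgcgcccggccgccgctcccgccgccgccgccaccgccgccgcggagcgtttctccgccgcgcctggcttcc
The stretch printed for Tgfbr1 held no SMAD box, while the window of its second start, not printed, held 2; the stretch before Tgfbr2 held 1 and that before Acvr2a held 3. The box is short and common: 88.0% of 32851 RefSeq windows of 300 bases hold at least 1. The 5-base CAGAC, which contains the box on its other strand, was in 49.6% of windows, among them those of Tgfbr2, Acvr2a and the second Tgfbr1 start. The palindrome GTCTAGAC (0.213% of windows), the homeodomain core TAATTA (5.29%) and the related ATTAA (27.1%) were in none of the 6 windows looked at. Each motif was searched on both strands.

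The receptor-activated SMADs showed little difference. Smad3 (ENSMUSG00000032402.12, chr9:63646767-63757994, minus strand) encodes the effector that binds DNA directly. Smad3 stood at 476.8, 501.9 and 523.1 CPM in the controls, against 473.2, 483.4, 508.8 and 379.7 CPM in the knockouts. Only Hhex KO replicate 4 stood clearly below the rest. The difference, -0.12 ± 0.13 on the log2 scale (adjusted p = 0.735), came to -0.04 without that library.

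Smad2 (ENSMUSG00000024563.15, chr18:76241580-76310963, plus strand), the other receptor-activated SMAD, was at 81.0, 77.0 and 77.8 CPM in the controls, against 66.0, 73.2, 70.7 and 64.6 CPM in the knockouts. Every Hhex KO library lay below every Cre control library. At -0.20 ± 0.10, its log2 fold change missed the threshold (adjusted p = 0.340).

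Smad4 (ENSMUSG00000024515.13, chr18:73639009-73703780, minus strand), the common partner of the receptor-activated SMADs, was the steadiest of the 9 genes in Cre control, at 131.6, 134.8 and 136 CPM. In Hhex KO it was at 123.8, 138.8, 141.5 and 124.2 CPM, on both sides of the controls. Its log2 fold change was -0.02 ± 0.10 (adjusted p = 0.949), with an interval of the fold from 0.838 to 1.16. Its sign turned with 4 of 16 alternative settings, where it lay between 0.0001 and 0.0341.

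None of the 3 genes for inhibitors of the pathway passed the test, and their log2 fold changes ran from -0.42 to -0.25. Smad7 (ENSMUSG00000025880.11, chr18:75367529-75395935, plus strand), the inhibitory SMAD, was at 120.8, 107.9 and 142.8 CPM in the controls, against 117.5, 99.8, 72.5 and 79.9 CPM in the knockouts. Hhex KO replicate 1 lay inside the Cre control range and the other 3 below it. This gave -0.42 ± 0.18 on the log2 scale (adjusted p = 0.259), with an unadjusted 95% interval of -0.83 to -0.01. With sample quality weights in limma-voom it was -0.49 (adjusted p = 0.0464), under which 10.9% of all genes fell. Over its 16 alternatives the adjusted p ran from 0.0464 to 0.642.

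Ski (ENSMUSG00000029050.15, chr4:155154075-155222592, minus strand) encodes a corepressor that binds SMAD complexes. It was at 182.8, 162 and 184 CPM in the controls, against 139.7, 160.2, 152.8 and 109.3 CPM in the knockouts. The groups did not overlap, but Cre control replicate 2 and Hhex KO replicate 2 lay close together. A log2 fold change of -0.33 ± 0.15 resulted (adjusted p = 0.276), and -0.23 without Hhex KO replicate 4.

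Skil (ENSMUSG00000027660.16, chr3:31095058-31122577, plus strand), the relative of Ski that encodes SNON, was at 136.6, 125.6 and 146.6 CPM in the controls, against 121.8, 112.8, 120.3 and 104.6 CPM in the knockouts. All 4 Hhex KO libraries lay below the lowest control. For Skil the log2 fold change was -0.25 ± 0.11 (adjusted p = 0.271).

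Smad2, Ski and Skil were thus 3 of 9 genes whose groups did not overlap and were lower in Hhex KO, against 9.98% of all tested genes. None was higher without overlap, against 9.37%, and 19.3% of all genes separated the groups in either direction. At an adjusted p below 0.05 none of the 3 was called with any of the 16 alternatives. The lowest adjusted p was 0.0534 for Ski, with nuclear-retained RNA as a covariate, 0.0851 for Skil, with sample quality weights, and 0.102 for Smad2, with the covariate.

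**Figure D3:**
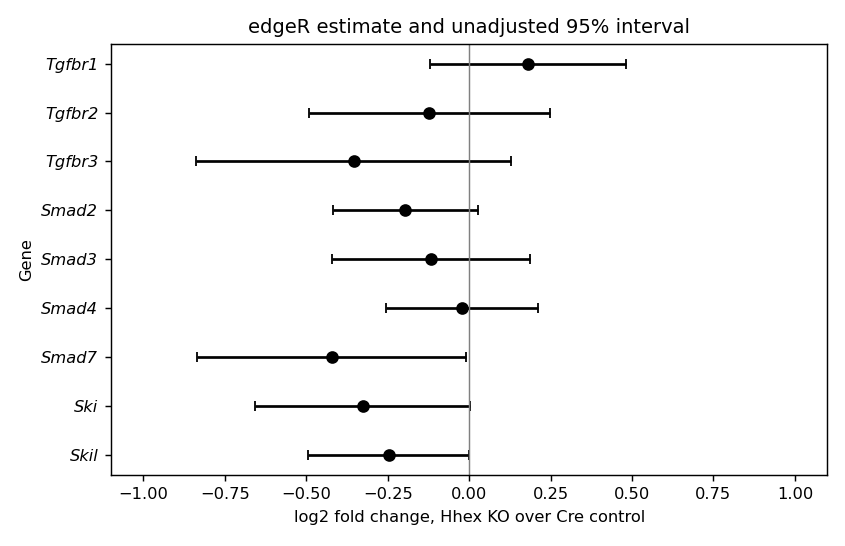
edgeR log2 fold change of each gene (horizontal axis, Hhex KO over Cre control) with its unadjusted 95% interval. The intervals of 8 genes span 0, and that of Smad7 ends at -0.01.

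The ratio of one gene to another within a library does not depend on how libraries are scaled. Of the 36 ratios among the 9 genes, 8 separated the groups, 6 of them with Tgfbr1 as 1 of the genes. The ratio of Tgfbr1 to Tgfbr2 counts was 0.219, 0.208 and 0.198 in the controls, against 0.259, 0.227, 0.263 and 0.283 in the knockouts, in replicate order. Every Hhex KO library was above every control. Ratios of any 2 tested genes separated the groups in 22% of pairs (over 12053 genes, with 108 left out because a library had no read), which is the share seen among these 36. In exact two-sided permutation tests the smallest p that 4 against 3 libraries can give is 0.0571, and adjusted over the 36 ratios the smallest was 0.257.

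Differences between libraries of 1 group were as wide as those between the groups for several genes, and part of them ran alongside nuclear-retained RNA. Within Hhex KO, Tgfbr2 was at 273.2 and 278.6 CPM in the libraries with low nuclear-retained RNA (replicates 2 and 3), and at 229.8 and 185.4 CPM in those with high levels (replicates 1 and 4). In Cre control it was at 232.8 CPM in replicate 1, the control with the most, and at 282 and 274.8 CPM in the others. Smad4 was likewise at 138.8 and 141.5 CPM in the former Hhex KO libraries and at 123.8 and 124.2 CPM in the latter. Smad7 did not follow this order, with 117.5 and 79.9 CPM in the libraries with high levels. With this RNA as a covariate, chosen after the values were seen, 0 of the 9 genes were called, while 8.46% of all genes were higher and 7.62% lower. The part of this RNA in the values of the 9 genes was not tested beyond that fit.

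**Figure D4:**
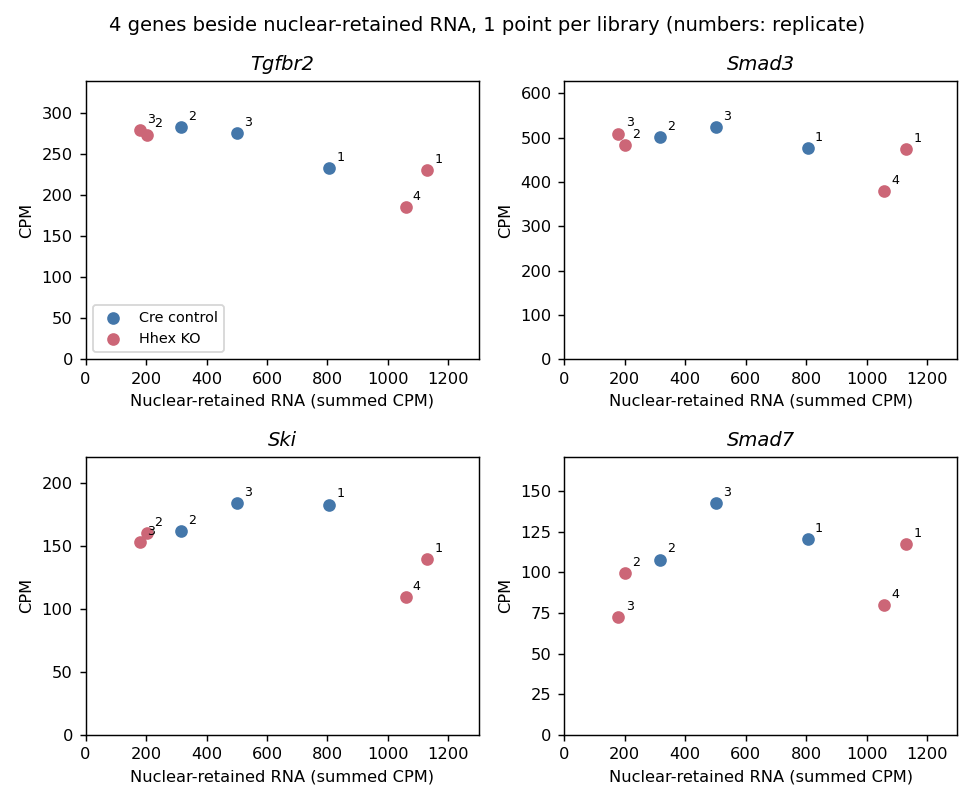
CPM of 4 of the genes (vertical axes, from 0) against the summed CPM of nuclear-retained RNA (horizontal axes), 1 point per library with its replicate number. The libraries at 804.5 CPM and above hold the 3 lowest Tgfbr2 values, 185.4 to 232.8 CPM, while Smad7 shows no such order.

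By Euclidean distance between centred log2 CPM profiles over the 7 libraries, among 7300 named protein-coding genes, the genes most like Smad7 were Vps37b (0.236), Topors (0.244) and Iffo2 (0.275). Smad7 was taken because it had the smallest p of the 9. Vps37b was at 272.7 to 338.2 CPM in the controls, against 199.98 to 304.9 CPM in the knockouts, and was not called (edgeR adjusted p = 0.318). The profiles hold the difference between the groups, so this outcome is not independent of that for Smad7.

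Other genes of the pathway were taken from 7 lists of ligands, receptors, SMADs, regulators and targets. Of 93 genes other than the 9, 74 were tested, 1 rose and 0 fell, beside 2.68% and 1.87% of all genes. Their median log2 fold change was -0.04. At an unadjusted p under 0.05 there were 17 (18.5% of all genes). With DESeq2, 2 rose and 6 fell, beside 5.14% and 3.86%: Acvr2a and Bmpr1a were higher, and Bambi, Bhlhe40, Cdkn1a, Id2, Sp1 and Tgfb3 lower. Genes are named here by their p-values within a list or, like Tgfb1, Nrros, Acvr1b, Bmpr2, Bmpr1a, Junb, Id2 and Cdkn1a, after their values were seen.

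**Figure D5:**
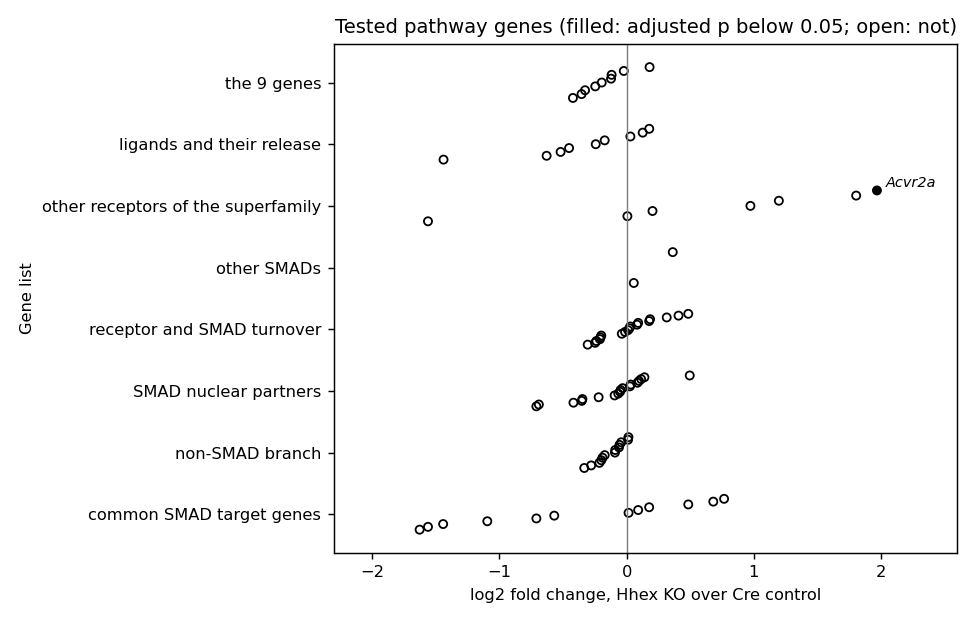
log2 fold change (horizontal axis, Hhex KO over Cre control) of each tested gene, by list. Filled points have an adjusted p below 0.05 in edgeR. Acvr2a, at 1.97, is the only filled point, and the 9 genes lie between -0.42 and 0.18.

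Among ligands and the proteins that release them, 0 of 9 tested genes passed, and 4 of the 13 on the list were too low to test. Tgfb1, the main TGF-β ligand of lymphocytes, was at 184.2, 207.7 and 185.3 CPM in the controls, against 179.8, 239.4, 225.3 and 140.7 CPM in the knockouts (log2 fold change 0.03 ± 0.18, adjusted p = 0.963). Tgfb3, a further ligand, was at 14.5, 16.8 and 13.2 CPM in the controls, against 10.2, 8.59, 9.19 and 10.4 CPM in the knockouts. Its groups did not overlap, and the log2 fold change of -0.63 ± 0.15 missed the threshold (adjusted p = 0.0538). It passed with DESeq2 (0.0125), weighting by sample quality (0.00764), nuclear RNA as a covariate (0.0128) and without Hhex KO replicate 4 (0.0453), as adjusted p. Nrros, which anchors latent TGF-β on cells, was at 114.5 to 124.5 CPM in the controls, against 80.8 to 118.6 CPM in the knockouts.

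Thbs1, which encodes the TGF-β activator thrombospondin and is also a platelet product, was at 3.00, 15 and 17.2 CPM in the controls, against 3.82, 8.48, 3.59 and 1.24 CPM in the knockouts (adjusted p = 0.308). Platelet markers (5 genes, 4 of them tested and 0 called) summed to 18.7 to 34.5 CPM in the controls, against 5.31 to 18.5 CPM in the knockouts, without overlap. Their part in the ligand values was not tested.

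The receptors of the related activin and bone morphogenetic protein (BMP) ligands held the only call. Acvr2a, the type II activin receptor gene, rose from 10.3, 5.98 and 6.59 CPM in the controls to 26.2, 21.3, 23.5 and 49.0 CPM in the knockouts. Its lowest Hhex KO library was above its highest control. The log2 fold change was 1.97 ± 0.34 (adjusted p = 0.018, edgeR). Leaving out Cre control replicate 1, 2 or 3 ended the call (adjusted p 0.0506, 0.0765 and 0.102), with log2 fold changes of 2.24, 1.82 and 1.87. Over all genes, leaving out a control gave 91 to 153 calls higher, against 326 with all 7 libraries. Acvr2a was called with the other 13 alternatives. Acvr1b, the type I receptor that pairs with it, was at 25.5 to 28.3 CPM in the controls, against 23.8 to 29.4 CPM in the knockouts (adjusted p = 0.987).

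Of the 12 receptors on this list, 7 were tested. Bambi, a decoy receptor without kinase activity, was at 23.0, 22 and 19.7 CPM in the controls, against 12.6, 8.31, 4.30 and 3.81 CPM in the knockouts. No library overlapped, and its log2 fold change of -1.56 ± 0.38 missed the threshold (adjusted p = 0.0582). It passed with DESeq2 (0.00144), limma-voom, plain (0.0278) or weighted by sample quality (0.00213), with nuclear RNA as a covariate (0.0458) and without Hhex KO replicate 1 (0.0206), as adjusted p. Bmpr1a, a type I BMP receptor gene, was at 0.528 to 1.2 CPM in the controls, against 2.00 to 4.93 CPM in the knockouts (log2 fold change 1.80 ± 0.46, adjusted p = 0.0634). Its adjusted p was 0.0204 with no filter, 0.0107 with DESeq2, 0.0170 with sample quality weights and 0.0201 with the covariate. Bmpr2, the type II BMP receptor gene, was at 24.4 to 26.5 and 23.6 to 34.1 CPM.

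The SMADs that carry BMP signals did not pass: Smad5 was at 46.8, 48.2 and 51.4 CPM in the controls, against 62.8, 47.9, 59.7 and 81.0 CPM in the knockouts (log2 fold change 0.36 ± 0.17, adjusted p = 0.302). Smad1 was at 19.8 to 22.4 and 18.7 to 24.8 CPM. Smad6 and Smad9 were too low to test.

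Of 18 tested genes for turnover of receptors and SMADs, 0 passed, with a median log2 fold change of 0.02. Nedd4, a ubiquitin ligase gene, was at 177 to 218 CPM in the controls, against 205.6 to 297.8 CPM in the knockouts (log2 fold change 0.41 ± 0.16, adjusted p = 0.202). Tgfbrap1, which encodes a receptor-associated protein, was at 69.7 to 82.4 CPM against 54.1 to 73.0 CPM (-0.31 ± 0.13, adjusted p = 0.257). Of 18 nuclear partners of SMADs 0 passed, with a median of -0.05. The lowest p was that of Sp1, a transcription factor gene (-0.42 ± 0.12, adjusted p = 0.102). Sp1 was at 232 to 267.9 CPM in the controls, against 158.9 to 201.5 CPM in the knockouts. Next came Tgif1, a SMAD corepressor gene, at 35.5 to 63.6 CPM against 20.9 to 40.0 CPM (-0.71 ± 0.25, adjusted p = 0.160).

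The branch that runs from the receptors through TRAF6 and TAK1 to MAP kinases held 13 tested genes, 0 of which passed (median -0.09). Traf6 was at 104, 115 and 126.7 CPM in the controls, against 94.9, 96.2, 99.0 and 75.8 CPM in the knockouts, a log2 difference of -0.33 ± 0.13 (adjusted p = 0.206). Mapk8, which encodes the kinase JNK, had -0.28 ± 0.13 (adjusted p = 0.310).

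Of 17 common SMAD target genes other than Smad7, Ski and Skil, 12 were tested and 0 passed. Their median log2 fold change was -0.28. In 5 of 12 the groups did not overlap and Hhex KO was lower (Bambi, Bhlhe40, Id2, Junb and Cdkn1a), beside 9.98% of all genes. In 1, Smurf2, Hhex KO was higher without overlap, beside 9.37% of all genes. Bhlhe40, a repressor gene active in cytokine-producing lymphocytes, was at 1040, 658 and 858 CPM in the controls, against 535.6, 296.6, 234.1 and 187.8 CPM in the knockouts (-1.44 ± 0.34, adjusted p = 0.0555). It passed with DESeq2 (0.000429), limma-voom without and with sample quality weights (0.0424 and 0.00173) and without Hhex KO replicate 1 (0.0103), as adjusted p. Junb, an AP-1 subunit gene that many stimuli induce, was at 3135 to 4000 CPM against 243.5 to 1914 CPM (-1.63 ± 0.59, adjusted p = 0.184). These genes answer to many signals besides TGF-β, and which signal moved with them was not measured. Pmepa1, a target and feedback inhibitor of the pathway, was at 1.27 to 1.62 CPM in the controls, against 1.15 to 2.52 CPM in the knockouts (adjusted p = 0.513).

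A last pair of lists held NK cell genes known to respond to TGF-β; some of these genes were already known to differ in these libraries when the lists were made, so their counts are no independent evidence of direction. Of 7 genes that TGF-β raises, 5 rose in Hhex KO and 0 fell (2.68% and 1.87% of all genes). Nt5e, which encodes the ectoenzyme CD73, was at 12.4, 12.4 and 18 CPM in the controls, against 34.5, 39.7, 29.2 and 35.9 CPM in the knockouts (log2 fold change 1.28 ± 0.18, adjusted p = 0.00638). Inpp4b, an inositol phosphatase gene, was at 3.82, 7.30 and 6.86 CPM against 27.3, 14.3, 27.6 and 18.9 CPM (1.87 ± 0.31, adjusted p = 0.0127). The others were Cxcr6, a chemokine receptor gene (5.51 ± 0.29), Itga1, which encodes the ILC1 integrin chain CD49a (2.72 ± 0.22), and Tnfsf10, which encodes TRAIL (1.25 ± 0.19, log2 fold changes). The call of Nt5e was lost without Cre control replicate 1 (adjusted p = 0.0506) and that of Inpp4b without Cre control replicate 1 or 3 (0.0639 and 0.0673). For Tnfsf10 the adjusted p without Cre control replicate 3 was 0.0585.

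The other 2 genes on that list did not pass. Itgae, which encodes the CD103 integrin chain that TGF-β induces in tissue-resident lymphocytes, was at 2.32 to 3.30 CPM in the controls, against 1.35 to 3.28 CPM in the knockouts (adjusted p = 0.727). Cd69, a retention and activation marker gene, was at 38.3 to 80.3 CPM against 23.9 to 42.7 CPM (-0.94 ± 0.28, adjusted p = 0.102). Of 8 genes that TGF-β lowers, 1 rose (S1pr1) and 2 fell (S1pr5 and Klf2), beside 2.68% and 1.87% of all genes. S1pr1, which encodes a receptor for exit from tissue, was at 116.5 to 123.3 CPM in the controls and 182.4 to 292.8 CPM in the knockouts. The related receptor gene S1pr5 was at 537.6 to 602.3 against 341.2 to 420.2 CPM. Klf2, a quiescence factor gene, was at 1021 to 1458 against 616.5 to 788.3 CPM. Ifng, which encodes interferon-γ, was at 190.1 to 265.9 CPM in the controls, against 35.2 to 113.1 CPM in the knockouts. Its groups did not overlap, and the log2 fold change of -1.67 ± 0.41 missed the threshold (edgeR adjusted p = 0.0640). Eomes, which encodes the NK cell factor that TGF-β represses in ILC1-like conversion, was at 739.7 to 843.2 CPM in the controls, against 711.1 to 800.9 CPM in the knockouts (log2 fold change -0.01 ± 0.12, adjusted p = 0.987). The calls of S1pr1, S1pr5 and Klf2 were each lost without any 1 control library (adjusted p 0.0576 to 0.144). That of S1pr5 was also lost without Hhex KO replicate 3 (0.0846), and that of Klf2 without Hhex KO replicate 1 or 3 (0.0584 and 0.0756). Without a control library, 91 to 153 of all genes were called higher and 50 to 82 lower, against 326 and 228 with all 7 libraries.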

How the data were processed

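Per the labels' protocols, RNA of sorted splenic NK cells was extracted with a column kit and made into strand-marking (directional) libraries for single-end sequencing. STAR, featureCounts and the mm10 build are listed in the submitters' processing notes, without versions. They give neither the annotation release nor the strand setting. The authors deposited raw counts per gene, not normalized, with 1 column per library. Gene identifiers were matched to symbols without their version (99.8%), and coordinates and exon lengths are those of GENCODE M21 on GRCm38 (mm10).

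Hhex KO (n = 4) was compared with Cre control (n = 3) with edgeR 4.0.16 in R 4.3.3: filter by expression (minimum count 10, minimum total 15), TMM scaling, quasi-likelihood F test with robust dispersions and no covariate. Benjamini-Hochberg adjustment ran over 12161 genes, and a gene with an adjusted p below 0.05 was called. Since no label ties a library to 1 mouse, p-values cover only the spread among these libraries. SE is the log2 fold change divided by the square root of F, and intervals use the test's degrees of freedom. The edgeR step was also run on simulated counts. These were drawn without shared differences between libraries, such as those seen in nuclear-retained RNA, so that run does not bear on them. Each library was counted as 1 replicate. Replicate libraries differed by more than sampling noise (chi-square per degree of freedom 11.2 to 78.5). That spread alone does not tell whether they come from different mice. Overlapping genes shared no exon bases with the 9 genes, except Gm43422 with Tgfbr3 (297 bases, 3 reads in all).

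The 9 genes and all lists were chosen with earlier results of these data known. All 9 are named. Of each other list, the genes past 0.05 are named, or the 2 with the smallest p where 1 or none passed. Further genes, among them Pmepa1, Itgae, Cd69, Eomes and Ifng, are named outside this rule. Likeness was searched among genes whose mean log2 CPM was 4 or more. Alternatives were scaling by RLE or by the upper quartile; a filter left off or made stricter (10 CPM in 3 libraries); DESeq2 1.42.0; limma 3.58.1 (voom), plain or weighted by sample quality; a replicate block on 6 libraries, each library left out and, added after the values were seen, a nuclear-RNA covariate.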

Additional observations from a re-analysis of the deposited data

How the results depend on the processing

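For the 9 genes, 0 were called with 15 of 16 alternatives, leaving out each library included (0 to 0 in either direction); limma-voom with sample quality weights called 1 lower, Smad7 (log2 fold change -0.49). Tgfbr3 could not be fitted under the stricter filter, which leaves it out. All kept their sign except Smad4, which was at 0.0341 with sample quality weights, 0.0001 with the replicate block, and 0.0019 and 0.0015 without Hhex KO replicates 1 and 4 (-0.0547 to 0.0019 with a library left out); the cause was not tested. Other pathway genes called higher numbered 1, and 2 with no filter, DESeq2 or the replicate block, 6 with sample quality weights and 4 with the nuclear-RNA covariate (0 to 2 with a library left out). Those called lower numbered 0, and 6 with DESeq2, 2 with limma-voom, 15 with sample quality weights, 5 with the replicate block and 8 with the covariate (0 to 3 with a library left out). Over all genes 326 rose and 228 fell; the counts were 186 higher with the stricter filter, 625 and 469 with DESeq2, 1534 and 1325 with sample quality weights, 499 higher with the replicate block, 1029 and 927 with the covariate, and 91 to 527 higher and 50 to 291 lower with a library left out. The cause of these shifts was not tested. The block joins libraries that share a number from 1 to 3 and drops Hhex KO replicate 4. It ended the call of Klf2 (adjusted p = 0.0579), while Bambi, Bhlhe40, Id2, Junb and Zeb2 were called lower under it (0.0184 to 0.0425) and Nedd4 higher (0.0433). Deviations of same-numbered libraries from their group means correlated at 0.147, 0.566 and -0.082, so the numbers were not taken to pair the samples. Depth limits Tgfbr3, at 439 reads over the 7 libraries.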
